A study of Mus musculus with 4 samples.

Results

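Transforming growth factor beta (TGF-beta) and the integrin that activates it are described here through 9 genes, fixed by name, of the 32289 features counted in each library: Itgb8, Itgav, Tgfb1, Tgfb2, Tgfb3, Ltbp3, Thbs1, Tgfbr1 and Tgfbr2. Their RNA was measured by droplet-based 3' single-cell sequencing of cells from the mesenteric lymph nodes (mLN) of untreated mice aged 15 days. All 12 mice carried the alleles Gm38411-iCre-hCD2 and R26 tdTomato, a Cre driver with a human CD2 surface marker and a Cre reporter. Cells negative for CD3 and B220 and positive for CD11c, MHC-II and tdTomato were sorted into an hCD2+ and an hCD2- fraction, and each mouse had its own hashtag antibody in both fractions. The groups compared are therefore hCD2+ and hCD2- cells of the same 12 mice, with the same genotype, age and gate. Both are tdTomato+, so that no group without Cre recombination is among them. The series title names dendritic cells (DCs) that are needed for peripheral regulatory T cells to arise when antigen is eaten.

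TGF-beta is secreted in a latent form, in which the mature cytokine is held inside its own propeptide, the latency-associated peptide, and is often tethered to matrix or to a cell surface. The integrin alpha-v beta-8, whose chains are encoded by Itgav and Itgb8, binds an Arg-Gly-Asp (RGD) motif of that peptide and so activates the cytokine. In the gut and its lymph nodes, DCs that carry this integrin are known for their role in inducing regulatory T cells, which respond to TGF-beta through the receptor chains encoded by Tgfbr1 and Tgfbr2. The beta-8 chain pairs only with alpha-v, whereas alpha-v also pairs with other beta chains.

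The integrin's target site can be read in the coding sequences of the ligands. The 27 bases around it are shown because they tell the 3 ligand genes apart, with the codons for Arg-Gly-Asp in capitals, from GENCODE vM21 on GRCm38.
Tgfb1: cccaaacgtCGGGGCGACctgggcacc
Tgfb3: gaccatggcCGTGGAGACctggggcgt
The Tgfb1 site lies in exon 5 at chr7:25697133-25697159 on the + strand and starts at codon 244. The Tgfb3 site lies in exon 5 at chr12:86062156-86062182 on the - strand and starts at codon 261. The search was in frame for an Arg codon (CGN, AGA or AGG), a Gly codon (GGN) and an Asp codon (GAC or GAT), codons that do not overlap each other. It found 1 match in the 1170 coding bases of Tgfb1 and 1 in the 1236 of Tgfb3, but 0 in the 1326 of Tgfb2. Of 21782 mouse coding sequences, 1569 (7.20%) hold at least 1 such run, and a match is a description of the letters.

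The integrin genes lie on different chromosomes: Itgb8 (ENSMUSG00000025321) at chr12:119158022-119238802 on the - strand and Itgav (ENSMUSG00000027087) at chr2:83724397-83806916 on the + strand. Tgfb1 (ENSMUSG00000002603) lies at chr7:25687002-25705077 (+), Tgfb2 (ENSMUSG00000039239) at chr1:186622792-186705989 (-) and Tgfb3 (ENSMUSG00000021253) at chr12:86056745-86079041 (-). Ltbp3 (ENSMUSG00000024940) lies at chr19:5740904-5758532 (+) and Thbs1 (ENSMUSG00000040152) at chr2:118111876-118127133 (+). The receptors are at chr4:47353222-47414931 (+) for Tgfbr1 (ENSMUSG00000007613) and chr9:116084293-116175360 (-) for Tgfbr2 (ENSMUSG00000032440). Tgfb3 overlaps Ttll5 on the other strand, so its low counts are less certain.

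The hCD2+ library gave 7099 cells of 12 mice (365 to 897 a mouse, median 17486 unique molecular identifiers, UMIs, a cell) and the hCD2- library 4762 (234 to 592 a mouse, median 23846 UMIs). Kept cells of both libraries shared 9 cell barcodes. Gm38411, the gene that carries the cassette, averaged 41.0 ± 5.83 CPM (counts scaled to a common library total) in hCD2+ and 1.27 ± 0.392 CPM in hCD2- cells (SD, n = 12 mice each). Cells were clustered without the 9 genes and named from marker lists, so the names are rebuilt and carry the ending -like. The sort label was DCs without CD3, but the hCD2+ and hCD2- fractions held 2952 and 212 cells like group 3 innate lymphoid or lymphoid tissue inducer cells (ILC3 or LTi-like) and 333 and 940 T cell-like cells. DC classes were the CCR7 migratory DC-like class (745 hCD2+ and 954 hCD2- cells), the Prdm16 or Aire DC-like class (1322 and 188), cDC2-like cells (161 and 943) and cDC1-like cells (88 and 255). Each fraction is 1 library, so fraction and library cannot be told apart, and p-values measure the spread over mice. Over sums of all cells, fewer cells of a type and less RNA per cell cannot be told apart either.

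Itgb8, the beta-8 chain, was highest in CCR7 DC-like cells, a class of clusters that each elevated Ccr7, the chemokine receptor of DCs that travel to lymph nodes, and at least 9 of the 10 CCR7 DC markers. In hCD2+ CCR7 DC-like cells its lowest, median and highest mouse stood at 239, 379 and 840.4 CPM, against 13.7, 92.9 and 233 CPM in hCD2- CCR7 DC-like cells (12 mice each). The fractions did not overlap, and the hCD2+ value was higher in 12 of 12 mice. The log2 fold change of hCD2+ over hCD2- was 2.01 ± 0.28 (SE; edgeR quasi-likelihood test, adjusted p = 2.37e-06). In this comparison 32.8% of 8706 tested genes passed an adjusted p of 0.05 (here, were called), as did 5 of the 6 members tested. Next came Prdm16 or Aire DC-like cells, with 31.3, 43.2 and 80.4 CPM in the hCD2+ fraction (12 mice), against 0, 16.2 and 41.7 CPM in the hCD2- fraction (10 mice). These ranges overlapped, although the hCD2+ value was higher in all 10 mice that had both (log2 1.43 ± 0.35, adjusted p = 0.00134; 3 of 6 members and 48.9% of 10226 genes called).

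Below these stood T cell-like cells, with a mean of 12.2 ± 18.9 CPM in hCD2+ (n = 11) and 10.4 ± 7.83 CPM in hCD2- cells (n = 12), 2 values within their spread. ILC3 or LTi-like cells, the largest named class of the hCD2+ fraction, had 1.05 ± 0.770 CPM in hCD2+ (n = 12) and 0.405 ± 1.34 CPM in hCD2- cells (n = 11). In cDC2-like cells the mean was 8.25 ± 21.4 CPM in hCD2+ (n = 9), with a median of 0, and 0.335 ± 0.709 CPM in hCD2- cells (n = 12). The hCD2+ cDC2-like mean came from mouse 10, at 64.8 CPM. Its 30 UMIs lay in 2 of 12 cells, and the cell with most of them, 18, also held 55 Ccr7, 126 Fscn1 and 118 Ccl22 UMIs. Likewise, all 127 Itgb8 UMIs of the hCD2+ monocyte or macrophage-like cells lay in 1 cell, which held 147 Ccr7 and 153 Fscn1 UMIs beside 274 of Lyz2. That class pooled to 48.9 CPM in hCD2+ and 2.74 CPM in hCD2- cells.

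**Figure D1:**
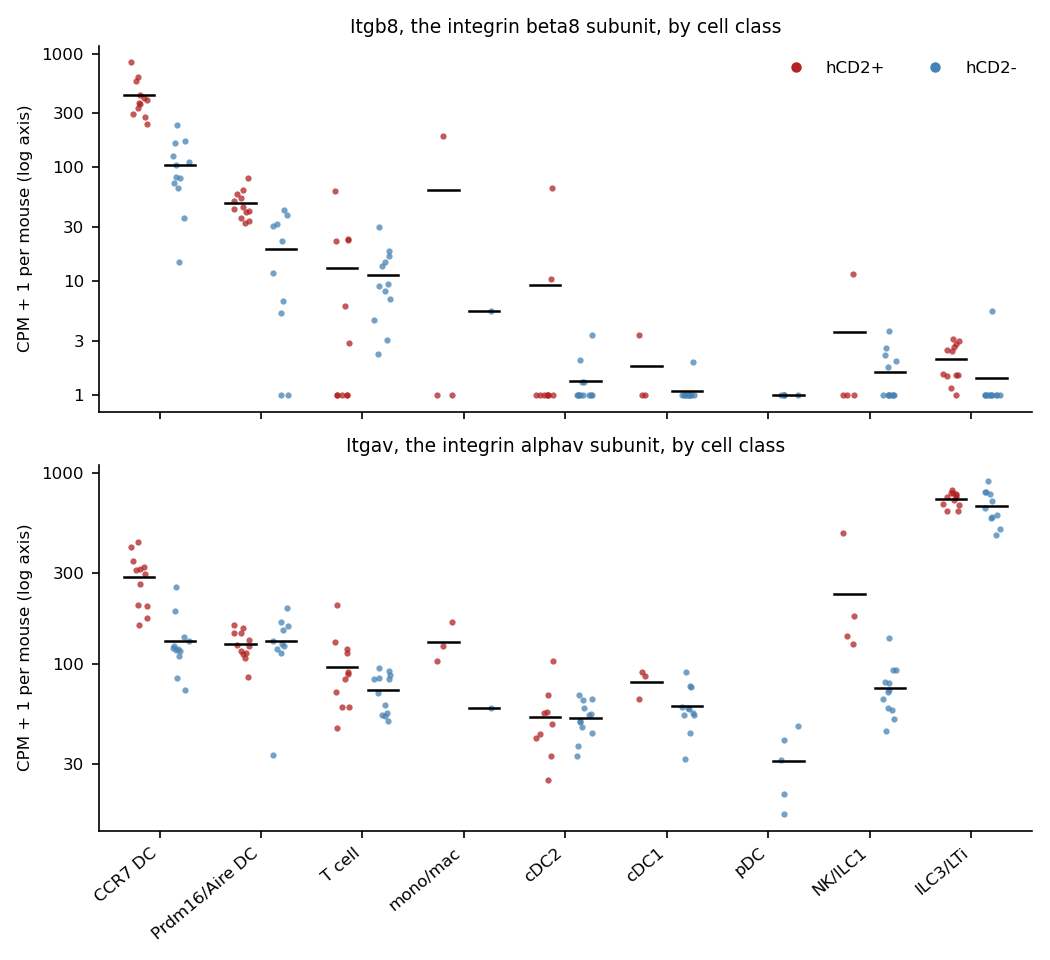
Level of Itgb8 (top) and Itgav (bottom) per mouse in 9 rebuilt classes, as CPM + 1 on a log axis; each point is a mouse with at least 10 cells, red hCD2+ and blue hCD2-, and the black bar is the mean. Itgb8 is highest in CCR7 DC-like cells, at 239 to 840.4 CPM in hCD2+ and 13.7 to 233 CPM in hCD2- mice, while Itgav is highest in ILC3 or LTi-like cells.

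Within the hCD2+ fraction, Prdm16 or Aire DC-like cells had more Itgb8 RNA than ILC3 or LTi-like cells in 12 of 12 mice (log2 5.55 ± 0.24, adjusted p = 1.43e-18). In that comparison 6 of 6 members and 81.1% of 11181 genes were called. Set against CCR7 DC-like cells, Prdm16 or Aire DC-like cells had less of it in 12 of 12 mice (log2 -3.50 ± 0.20, adjusted p = 1.76e-15; 5 of 6 members and 75.1% of 10067 genes called). Within the hCD2- fraction the same pair differed by -2.86 ± 0.48 on the log2 scale (adjusted p = 9.61e-06, lower in 10 of 10 mice; 3 of 6 members and 65.3% of 8082 genes called). Against hCD2+ cDC2-like cells the log2 fold change was 2.69 ± 0.53 (adjusted p = 1.08e-04; 5 of 6 members and 58.1% of 10390 genes called), and 5.30 (adjusted p = 3.18e-09) without cDC2-like mouse 10, an alternative chosen after seeing the data.

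The CCR7 DC-like class was made of clusters 10, 7 and 8, which the fractions shared unequally: 221 hCD2+ and 10 hCD2- cells in cluster 10, 196 and 144 in cluster 7, and 328 and 800 in cluster 8. Cluster 10 had the highest Itgb8 level of any cluster with 6 or more mice, with 461, 845 and 1445 CPM as its lowest, median and highest of 8 hCD2+ mice. It elevated 9 of the 10 CCR7 DC markers and 3 of the 10 Prdm16 or Aire DC markers, with Prdm16 at 1104 ± 220.1 CPM. Cluster 7 had 109, 329.9 and 697 CPM in hCD2+ (10 mice), against 239.7, 401 and 969 CPM in hCD2- cells (6 mice), ranges that overlapped. Cluster 8 had 6.18, 61.2 and 191 CPM in hCD2+ cells, against 0.959, 27.3 and 68.2 CPM in hCD2- cells (12 mice each), which also overlapped.

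Cluster 10 exceeded cluster 7 by 1.29 ± 0.25 on the log2 scale (adjusted p = 1.64e-04, 7 of 7 mice; 5 of 6 members and 49.4% of 6507 genes called). It exceeded cluster 8 by 3.51 ± 0.35 (adjusted p = 6.22e-09, 8 of 8 mice; 6 of 6 members and 47.8% of 6833 genes called). Cluster 8 lay below cluster 7 in both fractions, by log2 -2.25 ± 0.35 in hCD2+ (adjusted p = 6.04e-06; 3 of 5 members and 45.6% of 6178 genes called) and -4.15 ± 0.32 in hCD2- cells (adjusted p = 2.76e-10; 3 of 6 members and 43.5% of 8047 genes called). The order of the 3 clusters in hCD2+ cells was therefore 10, 7, 8, with each neighbouring pair past the test. Since clusters were drawn on the same cells, these p-values take the clusters as given.

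Between fractions, Itgb8 differed within cluster 8 (log2 1.47 ± 0.38, adjusted p = 0.0132, higher in hCD2+ in 10 of 12 mice) but did not pass the test within cluster 7 (-0.41 ± 0.29, adjusted p = 0.422). In cluster 8, 1 of 5 members tested and 9.08% of 7114 genes were called, and in cluster 7, 0 of 5 members and 5.71% of 5276 genes. Without cluster 10, an alternative chosen after seeing the data, the difference of the whole CCR7 DC-like class was 1.05 (adjusted p = 0.0121) on the log2 scale. The fractions still shared clusters 7 and 8 unequally there, and the part of this mix was not tested.

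The Prdm16 or Aire DC-like class held clusters 2, 3 and 5, which differed in Itgb8. Cluster 2, with Aire at 547 ± 96.3 CPM, also elevated 6 of the 10 CCR7 DC markers, against 0 in clusters 3 and 5, and the part of this in its Itgb8 level was not tested. It had 83.3, 154 and 249 CPM of Itgb8 as lowest, median and highest of 12 hCD2+ mice. Cluster 3, with Prdm16 at 3246 ± 385 CPM and Aire at 15.7 ± 9.57 CPM, had 7.63, 15.9 and 24.1 CPM. Cluster 5 had 0, 3.55 and 11.0 CPM in hCD2+ (12 mice), against 0, 1.79 and 23.3 CPM in hCD2- cells (10 mice). In hCD2+ cells the range of cluster 2 overlapped with neither other range.

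Cluster 2 exceeded cluster 3 by 3.44 ± 0.16 (adjusted p = 9.71e-18; 3 of 5 members and 66.7% of 8240 genes called) and cluster 5 by 5.18 ± 0.24 on the log2 scale (adjusted p = 1.93e-17; 4 of 5 members and 65.0% of 6935 genes called), each in 12 of 12 mice. Cluster 3 exceeded cluster 5 by 1.79 ± 0.28 (adjusted p = 1.77e-06, 12 of 12 mice; 4 of 5 members and 63.8% of 8660 genes called). The hCD2- fraction held only 14 cells of cluster 2, which pooled to 197 CPM, and 2 of cluster 3. Cluster 5 held 328 of the 1322 hCD2+ cells of the class and 172 of the 188 hCD2- cells, so the fractions differ in the clusters they compare. Cluster 10 exceeded cluster 2 by 2.60 ± 0.19 on the log2 scale (adjusted p = 1.11e-11, 8 of 8 mice; 4 of 6 members and 47.9% of 7186 genes called), a comparison chosen after seeing the data.

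**Figure D2:**
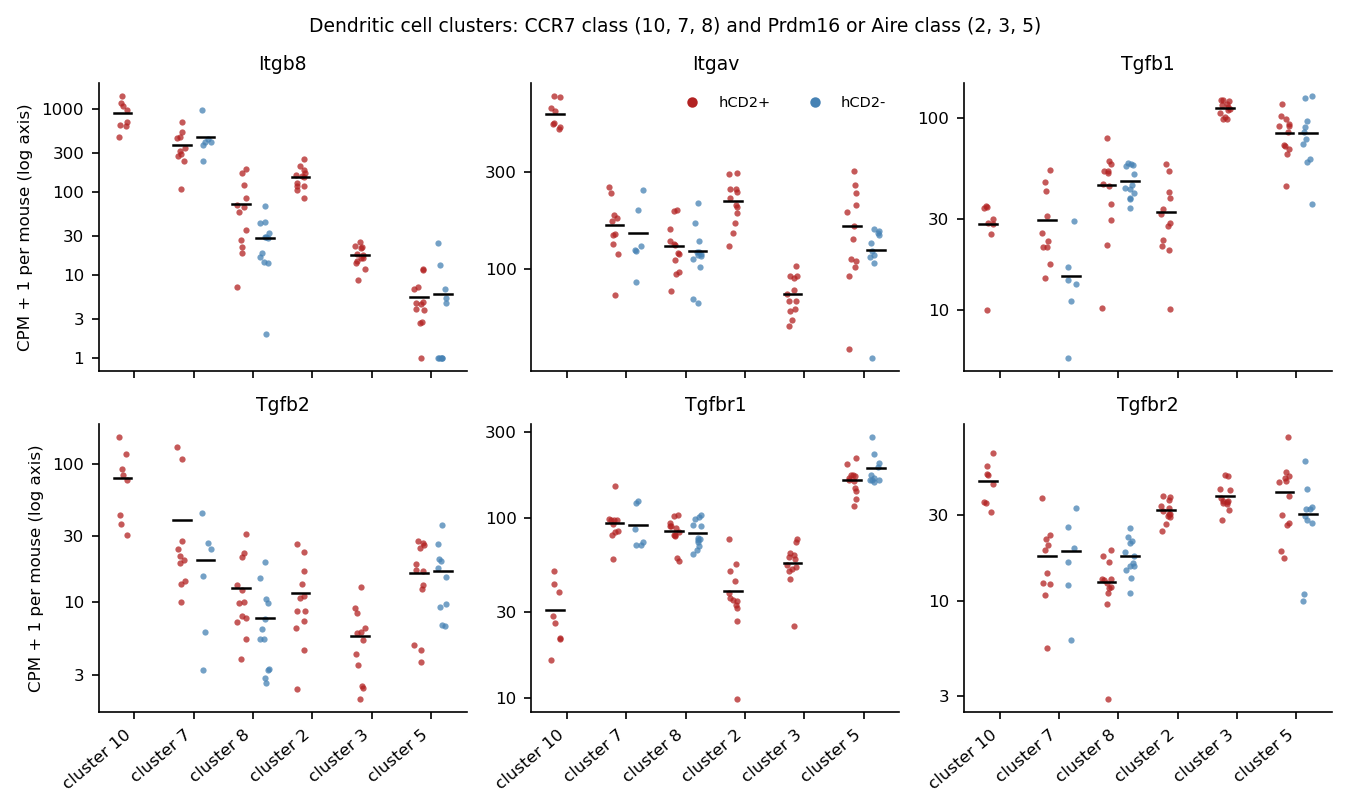
Level per mouse of 6 members in the 3 CCR7 DC-like clusters (10, 7, 8) and the 3 Prdm16 or Aire DC-like clusters (2, 3, 5), as CPM + 1 on a log axis; points are mice with at least 10 cells, red hCD2+ and blue hCD2-, and the black bar is the mean. Itgb8 is highest in cluster 10 (461 to 1445 CPM) and, among clusters 2, 3 and 5, in cluster 2 (83.3 to 249 CPM).

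Itgav, the alpha-v chain, had another order of classes. It was highest in ILC3 or LTi-like cells, with 628, 746 and 815 CPM as lowest, median and highest hCD2+ mouse (n = 12), against 472, 656 and 903 CPM in hCD2- cells (n = 11). These ranges overlapped and did not differ past the test (log2 0.09 ± 0.08, adjusted p = 0.666). CCR7 DC-like cells had 159, 303 and 434 CPM in hCD2+, against 72.4, 119 and 253 CPM in hCD2- cells, overlapping ranges in which hCD2+ was higher in 12 of 12 mice (log2 1.11 ± 0.18, adjusted p = 1.66e-05). In the Prdm16 or Aire class the level was 126 ± 21.7 CPM in hCD2+ and 131 ± 42.8 CPM in hCD2- cells (log2 -0.00 ± 0.15, adjusted p = 0.985). The level was lower in Prdm16 or Aire DC-like than in ILC3 or LTi-like cells of the hCD2+ fraction (log2 -2.39 ± 0.08, adjusted p = 7.23e-22, 12 of 12 mice), where Itgb8 was the higher of the pair.

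Among CCR7 DC-like clusters, Itgav stood at 487, 561 and 709 CPM (lowest, median and highest of 8 hCD2+ mice) in cluster 10. Cluster 7 had 164 ± 53.2 CPM in hCD2+ and 149 ± 57.9 CPM in hCD2- cells, and cluster 8 had 129.7 ± 36.6 and 121 ± 38.5 CPM in the same order of fractions. Cluster 10 exceeded both, by log2 1.86 ± 0.16 over cluster 7 (adjusted p = 1.23e-09, 7 of 7 mice) and 2.13 ± 0.14 over cluster 8 (adjusted p = 3.23e-12, 8 of 8 mice). Neither cluster 7 (log2 0.08 ± 0.23, adjusted p = 0.879) nor cluster 8 (0.11 ± 0.16, adjusted p = 0.754) differed between fractions past the test. Without cluster 10 the class gave log2 0.13 (adjusted p = 0.581), so its call between fractions was lost with that cluster. Among hCD2+ cells of the Prdm16 or Aire class, cluster 2 (215 ± 52.1 CPM) exceeded cluster 3 (74.6 ± 16.2 CPM) by log2 1.75 ± 0.13 (adjusted p = 3.19e-13, 12 of 12 mice). Cluster 5 had 162 ± 78.3 CPM in hCD2+ and 123 ± 35.6 CPM in hCD2- cells.

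Natural killer or group 1 innate lymphoid (NK or ILC1)-like cells averaged 231 ± 169 CPM of Itgav in hCD2+ (n = 4) and 74.3 ± 24.5 CPM in hCD2- cells (n = 12), and 1 hCD2+ mouse at 483 CPM set that mean. The lowest levels were in cDC2-like cells, with 51.6 ± 23.0 CPM in hCD2+ and 51.3 ± 11.3 CPM in hCD2- cells, and in plasmacytoid DC (pDC)-like cells, with 25.3 CPM pooled in hCD2+ and 30.2 ± 12.8 CPM (n = 5) in hCD2- cells.

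Shares of cells were compared after each cell was sampled down to 5000 UMIs. In the CCR7 DC-like class the share of cells with an Itgb8 UMI was lowest at 32.2%, median 42.0% and highest 54.9% over 12 hCD2+ mice, against 5.66%, 10.6% and 24.3% over 12 hCD2- mice. These ranges did not overlap (two-sided permutation test over mice, p = 2e-05, adjusted p = 1.8e-04 over 18 tests, of which 16.7% were called), and the share was higher in 12 of 12 mice. Itgav followed with 45.8 ± 6.64% in hCD2+ and 31.4 ± 5.36% in hCD2- cells (permutation test, adjusted p = 2.4e-04), and Tgfb2 with 12.8 ± 5.68% and 3.61 ± 2.50% in that order (permutation test, adjusted p = 1.8e-04). Without sampling down, 54.9% of 745 hCD2+ and 17.5% of 954 hCD2- CCR7 DC-like cells held an Itgb8 UMI, at median depths of 32849 and 29510 UMIs. For comparison, 0.583% of 2917 hCD2+ and 0 of 210 hCD2- ILC3 or LTi-like cells (which allows up to 1.43%) held one after sampling down. The part of free RNA in these was not tested. In droplets of 10 to 100 UMIs, taken as free RNA, Itgb8 stood at 92.6 CPM in the hCD2+ and 21.5 CPM in the hCD2- library.

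By cluster, the sampled share with an Itgb8 UMI was 73.7% of 213 hCD2+ cells in cluster 10. In cluster 7 it was 52.9% of 191 hCD2+ cells and 68 of 136 hCD2- cells, and in cluster 8 13.9% of 316 hCD2+ and 5.15% of 758 hCD2- cells. Cluster 2 had 42.7% of 337, cluster 3 had 7.22% of 609 and cluster 5 had 3.81% of 289 hCD2+ cells. Within hCD2+ cells the order of these 6 clusters by share was their order by mean level.

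Itgav was also counted in the same cells as Itgb8, as a description over cells, which are not replicates. In hCD2+ CCR7 DC-like cells an Itgav UMI was seen in 55.6% of 302 cells with an Itgb8 UMI and in 37.6% of 418 cells without. Within cluster 7 these shares lay closer, at 31.7% of 101 and 31.1% of 90 hCD2+ cells, and within cluster 10 at 73.9% of 157 and 64.3% of 56. In cluster 2 they were 45.1% of 144 and 40.4% of 193. Tgfb2 in hCD2+ cells of cluster 7 was seen in 19.8% of 101 cells with Itgb8 and 5.56% of 90 without. In the same order, cluster 10 had 24.8% of 157 and 8.93% of 56, and cluster 2 had 6.94% of 144 and 2.59% of 193. Cluster 5 had 27.3% of 11 and 4.68% of 278. The order turned round in cluster 8, with 4.55% of 44 and 6.25% of 272, and in cluster 3, with 0% of 44 and 1.77% of 565.

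**Figure D3:**
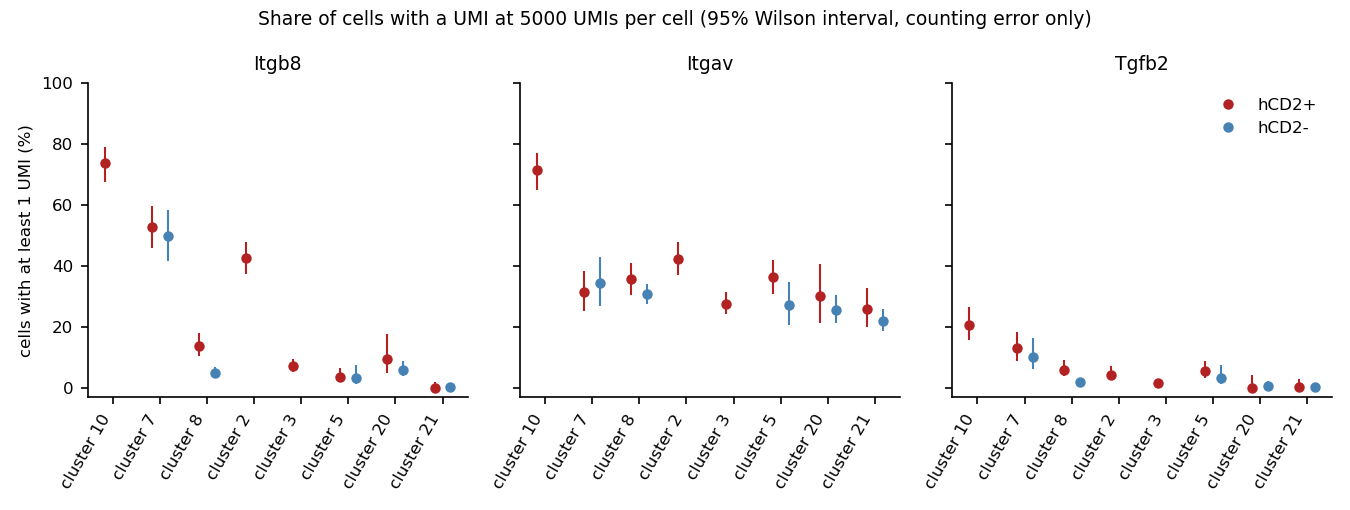
Percent of cells with a UMI of Itgb8, Itgav or Tgfb2 after each cell was sampled down to 5000 UMIs, in 6 DC-like and 2 T cell-like clusters with at least 50 cells; points are cells pooled over mice, red hCD2+ and blue hCD2-, and bars are Wilson 95% intervals, which cover counting error only. Itgb8 was seen in 73.7% of hCD2+ cells of cluster 10 and in 42.7% of cluster 2.

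Of the ligands, Tgfb1, the main TGF-beta of immune cells, ran opposite to Itgb8 among the DC classes. CCR7 DC-like cells had the lowest levels of any class, with 19.4, 33.5 and 45.4 CPM (lowest, median, highest of 12 mice) in hCD2+, against 31.6, 36.4 and 51.5 CPM in hCD2- cells. The ranges overlapped and the difference missed the threshold (log2 -0.27 ± 0.12, adjusted p = 0.0756). With the mouse as a block it was -0.29 (adjusted p = 0.0476). The Prdm16 or Aire class had 76.6, 86.3 and 96.8 CPM in hCD2+, against 38.2, 80.0 and 119 CPM in hCD2- cells, again overlapping. Within hCD2+ cells they exceeded CCR7 DC-like cells by log2 1.05 ± 0.09 (adjusted p = 4.74e-11, 12 of 12 mice) and lay below ILC3 or LTi-like cells, at 202 ± 22.9 CPM, by -1.09 ± 0.05 (adjusted p = 2.68e-17, 12 of 12 mice). They also lay below cDC2-like cells, at 158 ± 37.9 CPM, by -0.79 ± 0.11 (adjusted p = 1.04e-06, 9 of 9 mice). In the hCD2- fraction they lay below NK or ILC1-like cells by -1.80 ± 0.14 (adjusted p = 2.99e-12, 10 of 10 mice; 4 of 4 members and 63.3% of 7230 genes called).

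Within the Prdm16 or Aire DC-like class, the cluster with most Itgb8 had least Tgfb1. Cluster 2 had 9.17, 29.1 and 56.5 CPM as lowest, median and highest of 12 hCD2+ mice, and cluster 3 had 97.8, 112 and 123 CPM, with no overlap (log2 -1.60 ± 0.14, adjusted p = 1.96e-11). Cluster 5 had 82.3 ± 19.8 CPM in hCD2+ and 82.4 ± 29.4 CPM in hCD2- cells. Among the CCR7 DC-like clusters, cluster 10 had 27.1 ± 8.11 CPM in hCD2+ cells. Cluster 8 exceeded cluster 7 in hCD2- cells, at 45.8 ± 8.75 and 14.2 ± 7.78 CPM (log2 1.65 ± 0.24, adjusted p = 5.92e-06, 6 of 6 mice). In hCD2+ cells they had 44.0 ± 18.4 and 28.6 ± 13.2 CPM (log2 0.66 ± 0.25, adjusted p = 0.0359, and 0.0595 without cluster 7 mouse 1).

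In other classes Tgfb1 averaged 301 ± 18.1 CPM in hCD2+ monocyte or macrophage-like cells (n = 3) and pooled to 370 CPM in hCD2- ones. NK or ILC1-like cells had 278 ± 120 CPM in hCD2+ (n = 4) and 297 ± 45.7 CPM in hCD2- cells (n = 12), values within their spread. T cell-like cells had 137 ± 30.1 CPM in hCD2+ and 133 ± 13.5 CPM in hCD2- cells (log2 0.05 ± 0.10, adjusted p = 0.722). The fraction difference in Tgfb1 was more positive in Prdm16 or Aire DC-like than in CCR7 DC-like cells (interaction log2 0.48 ± 0.17, adjusted p = 0.0235), and it lost the call with cells sampled to 5000 UMIs (adjusted p = 0.308).

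Tgfb2, the ligand whose coding sequence held no in-frame RGD, was low in CPM and followed Itgb8 within the CCR7 DC-like class. There it had 18.0, 42.7 and 65.9 CPM as lowest, median and highest hCD2+ mouse, against 4.25, 9.47 and 25.2 CPM in hCD2- mice (12 each). The ranges overlapped slightly, and hCD2+ was higher in 12 of 12 mice (log2 1.78 ± 0.26, adjusted p = 6.43e-06). Cluster 10 had 78.4 ± 43.1 CPM (n = 8), above cluster 8, at 11.7 ± 8.19 CPM, by log2 2.54 ± 0.33 (adjusted p = 4.67e-07, 7 of 8 mice). Cluster 7 had 38.1 ± 43.4 CPM in hCD2+ and 19.1 ± 15.2 CPM in hCD2- cells, a spread in which no difference passed (log2 0.69 ± 0.56, adjusted p = 0.486). Without cluster 10 the class still differed (log2 0.90, adjusted p = 0.0391). Clusters 7 and 8 were then still mixed unequally, with 196 and 328 hCD2+ against 144 and 800 hCD2- cells. The part of this mix was not tested, and Tgfb2 was called between fractions in neither cluster.

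In Prdm16 or Aire DC-like cells Tgfb2 had the other direction, with 3.32, 6.88 and 16.6 CPM in hCD2+, against 5.34, 15.9 and 46.9 CPM in hCD2- cells. The ranges overlapped, hCD2+ was lower in 6 of 10 mice (log2 -1.10 ± 0.35, adjusted p = 0.0101), and with the mouse as a block the call was lost (log2 -1.05, adjusted p = 0.0590). The fraction difference was smaller there than in CCR7 DC-like cells by -2.86 ± 0.49 (interaction, adjusted p = 7.03e-06). Clusters set this class apart too: in hCD2+ cells the mean was 15.4 ± 8.82 CPM in cluster 5, 10.7 ± 7.29 in cluster 2 and 4.74 ± 3.20 in cluster 3, and in hCD2- cells of cluster 5 it was 15.9 ± 9.47 CPM. In the other named classes no mean passed 4 CPM, while 8 hCD2+ stromal-like cells pooled to 23.6 CPM.

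Tgfb3, the ligand with an RGD site that is best known from epithelial and mesenchymal tissue, was near the limit of detection. It had 100 UMIs in all hCD2+ and 126 in all hCD2- cells, and no class but the stromal-like one (50.6 CPM pooled) passed 5 CPM. NK or ILC1-like cells had 4.24 CPM in hCD2+ (n = 4) and 4.05 ± 3.29 CPM in hCD2- cells (n = 12). Cluster 3 had no UMI in 635 hCD2+ cells. The gene was too low to be tested.

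Ltbp3, a protein that binds latent TGF-beta to matrix, was also low, with 227 UMIs in hCD2+ and 120 in hCD2- cells. Summed over all cells it averaged 1.56 CPM in hCD2+ and 0.927 CPM in hCD2- mice (log2 0.68 ± 0.22, adjusted p = 0.00940, higher in 10 of 12 mice). In Prdm16 or Aire DC-like cells it had 60 UMIs or 1.56 CPM in hCD2+ and 27 UMIs or 6.09 CPM in hCD2- cells, a ratio of 0.256 with a 95% counting interval of 0.160 to 0.419. Within cluster 5 the means were 4.68 ± 4.43 CPM in hCD2+ and 7.56 ± 7.99 CPM in hCD2- cells, values within their spread. The ratio was 0.967 (0.649 to 1.44) in CCR7 DC-like, 0.977 (0.454 to 2.50) in ILC3 or LTi-like and 0.511 (0.0118 to 3.59) in cDC2-like cells. The fractions differ in their mix of classes, and the part of this mix in the difference over all cells was not tested.

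Thbs1, thrombospondin 1, a matrix protein that can activate latent TGF-beta without the integrin, was found mainly outside the DC-like classes. Monocyte or macrophage-like cells held 322 UMIs in hCD2+ and 77 in hCD2- cells, pooled to 124 and 70.3 CPM in that order (ratio 1.76, counting interval 1.37 to 2.29). The 8 hCD2+ stromal-like cells pooled to 550.3 CPM. Prdm16 or Aire DC-like cells had 0.337 CPM pooled in hCD2+ and 1.81 CPM in hCD2- cells, and within the hCD2+ fraction a ratio to monocyte or macrophage-like cells of 0.00272 (0.00143 to 0.00472). T cell-like cells had no UMI.

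Tgfbr1, the type I receptor that passes the signal on, had the smallest adjusted p of the members between the fractions of Prdm16 or Aire DC-like cells. Its level was 58.8, 73.5 and 95.2 CPM as the lowest, median and highest of 12 hCD2+ mice, against 153, 164 and 263 CPM of 10 hCD2- mice, with no overlap (log2 -1.21 ± 0.10, adjusted p = 1.03e-10, lower in 10 of 10 mice). Cluster 5, which holds most hCD2- cells of the class, had 116, 163 and 214 CPM in hCD2+, against 158, 169.6 and 280.1 CPM in hCD2- cells, which overlapped (log2 -0.21 ± 0.11, adjusted p = 0.383; 0 of 4 members and 2.82% of 6703 genes called). Clusters 2 and 3 stood lower, at 38.4 ± 16.5 and 55.4 ± 13.3 CPM in hCD2+ cells, by log2 -1.81 ± 0.16 (adjusted p = 6.24e-11) and -1.52 ± 0.12 (adjusted p = 7.01e-12) against cluster 5, each in 12 of 12 mice.

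In CCR7 DC-like cells Tgfbr1 averaged 68.0 ± 10.3 CPM in hCD2+ and 82.8 ± 10.9 CPM in hCD2- cells (log2 -0.31 ± 0.08, adjusted p = 0.00368, lower in 9 of 12 mice; 0.198 with cells sampled to 5000 UMIs). Cluster 10, at 29.8 ± 12.2 CPM, lay below cluster 7, at 92.9 ± 23.0 CPM, by log2 -1.65 ± 0.20 (adjusted p = 3.10e-07), and below cluster 8, at 83.2 ± 14.4 CPM, by -1.57 ± 0.18 (adjusted p = 5.74e-08). Without cluster 10 the difference between fractions turned round, to 0.06 (adjusted p = 0.667). The difference was more negative in Prdm16 or Aire DC-like than in CCR7 DC-like cells (interaction -0.88 ± 0.13, adjusted p = 3.78e-07; 4 of 6 members and 32.2% of 10745 genes called) and than in ILC3 or LTi-like cells (-1.19 ± 0.12, adjusted p = 2.12e-11; 2 of 6 members and 27.3% of 11313 genes called). In ILC3 or LTi-like cells the level was 141 ± 8.97 CPM in hCD2+ and 142 ± 17.6 CPM in hCD2- cells. Between Prdm16 or Aire DC-like and CCR7 DC-like hCD2+ cells no direction is given, since the fitted value was -0.20 ± 0.09 (adjusted p = 0.0392), was opposite in sign to the mean CPM and became 0.09 when cells were sampled to 5000 UMIs.

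The highest Tgfbr1 levels were in pDC-like cells, with 583 CPM pooled in hCD2+ and 514 ± 125 CPM in hCD2- cells (n = 5). Within the hCD2- fraction, Prdm16 or Aire DC-like cells exceeded cDC1-like (log2 1.54 ± 0.13, adjusted p = 1.05e-10; 4 of 4 members and 68.0% of 7132 genes called) and cDC2-like cells (1.08 ± 0.10, adjusted p = 3.03e-10; 4 of 4 members and 56.6% of 9065 genes called). T cell-like cells had 149 ± 33.7 CPM in hCD2+ and 117 ± 21.3 CPM in hCD2- cells (log2 0.34 ± 0.12, adjusted p = 0.0210; 0.0583 with no filter on low counts and 0.391 with cells sampled to 5000 UMIs).

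Tgfbr2, the type II receptor that binds the ligand, was high in lymphoid classes and in pDC-like cells, which pooled to 263 CPM in hCD2+ and averaged 241 ± 20.8 CPM in hCD2- cells (n = 5). T cell-like cells had 175, 212 and 410.4 CPM in hCD2+ (11 mice), against 348, 409.7 and 487 CPM in hCD2- cells (12 mice), overlapping ranges with hCD2+ lower in 11 of 11 mice (log2 -0.72 ± 0.12, adjusted p = 2.94e-05; 2 of 4 members and 40.9% of 7846 genes called). The T cell-like clusters were not alike in this. Cluster 21, with Cd8a, had 368 ± 31.4 CPM in hCD2+ and 368 ± 37.4 CPM in hCD2- cells, a pair that was not tested. Cluster 20 had 264 ± 41.6 CPM (n = 4) and 528 ± 49.0 CPM (n = 12) in that order. Cluster 22, with 38 hCD2+ and 8 hCD2- cells, pooled to 41.6 and 119 CPM. Too few mice had cells of clusters 20 and 22 in both fractions for a test.

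ILC3 or LTi-like cells had 183, 218 and 262 CPM of Tgfbr2 in hCD2+, against 191, 272 and 335 CPM in hCD2- cells, overlapping (log2 -0.29 ± 0.08, adjusted p = 0.0226, lower in 10 of 11 mice; 1 of 4 members and 4.06% of 9835 genes called). With the mouse as a block this call was lost (adjusted p = 0.0550). DC-like classes had less of it: in the Prdm16 or Aire class 36.0 ± 3.47 CPM in hCD2+ and 30.6 ± 13.9 CPM in hCD2- cells, and in the CCR7 class 27.4 ± 8.02 CPM in hCD2+ and 17.6 ± 3.87 CPM in hCD2- cells. Within the hCD2+ fraction, Prdm16 or Aire DC-like cells lay below ILC3 or LTi-like cells by log2 -2.47 ± 0.05 (adjusted p = 1.41e-25, 12 of 12 mice). Within the hCD2- fraction they lay below ILC3 or LTi-like cells by -3.04 ± 0.19 (adjusted p = 1.69e-13, 9 of 9 mice; 4 of 4 members and 55.9% of 5587 genes called) and below T cell-like cells by -3.67 ± 0.16 (adjusted p = 2.76e-18, 10 of 10 mice; 4 of 4 members and 66.5% of 7715 genes called). Among CCR7 DC-like clusters, cluster 10 had most, at 45.3 ± 12.0 CPM, by log2 1.48 ± 0.24 over cluster 7 (adjusted p = 1.49e-05) and 1.79 ± 0.21 over cluster 8 (adjusted p = 6.74e-08). The class difference between fractions (log2 0.58 ± 0.14, adjusted p = 0.00241) turned round without cluster 10, to -0.37 (adjusted p = 0.0971).

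Over all cells of a mouse, 7 members could be tested, of which 4 were higher and 1 lower in the hCD2+ fraction (13236 genes tested, 67.8% called, 33.9% higher and 33.9% lower), with a median log2 fold change of 0.68 over members and -0.01 over all genes. Itgav was at 373 ± 59.4 CPM in hCD2+ and 103 ± 17.8 CPM in hCD2- cells (log2 1.84 ± 0.10, adjusted p = 1.13e-14). Itgb8 was at 83.7 ± 28.0 and 26.2 ± 16.5 CPM in the same order (1.64 ± 0.26, adjusted p = 4.35e-06, 11 of 12 mice). The fractions differ in their mix of classes. Cells were therefore also drawn at random to give each cluster the same number in both fractions, which kept 2010 cells of each. Itgb8 then gave 0.29 (adjusted p = 0.632), Itgav 0.28 (adjusted p = 0.110) and Tgfb2 0.24 (adjusted p = 0.616), and none passed. Clusters 10, 2 and 3 kept only as many hCD2+ cells as the hCD2- fraction held (10, 14 and 2). The equal mix and the loss of these cells cannot be told apart. Within CCR7 DC-like cells 4 of 6 members were higher and 1 lower (16.9% of genes higher and 15.9% lower; median 0.85 over members and 0.00 over all genes). In cDC2-like cells 0 of 4 passed (12.5% of 8918 genes called).

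**Figure D4:**
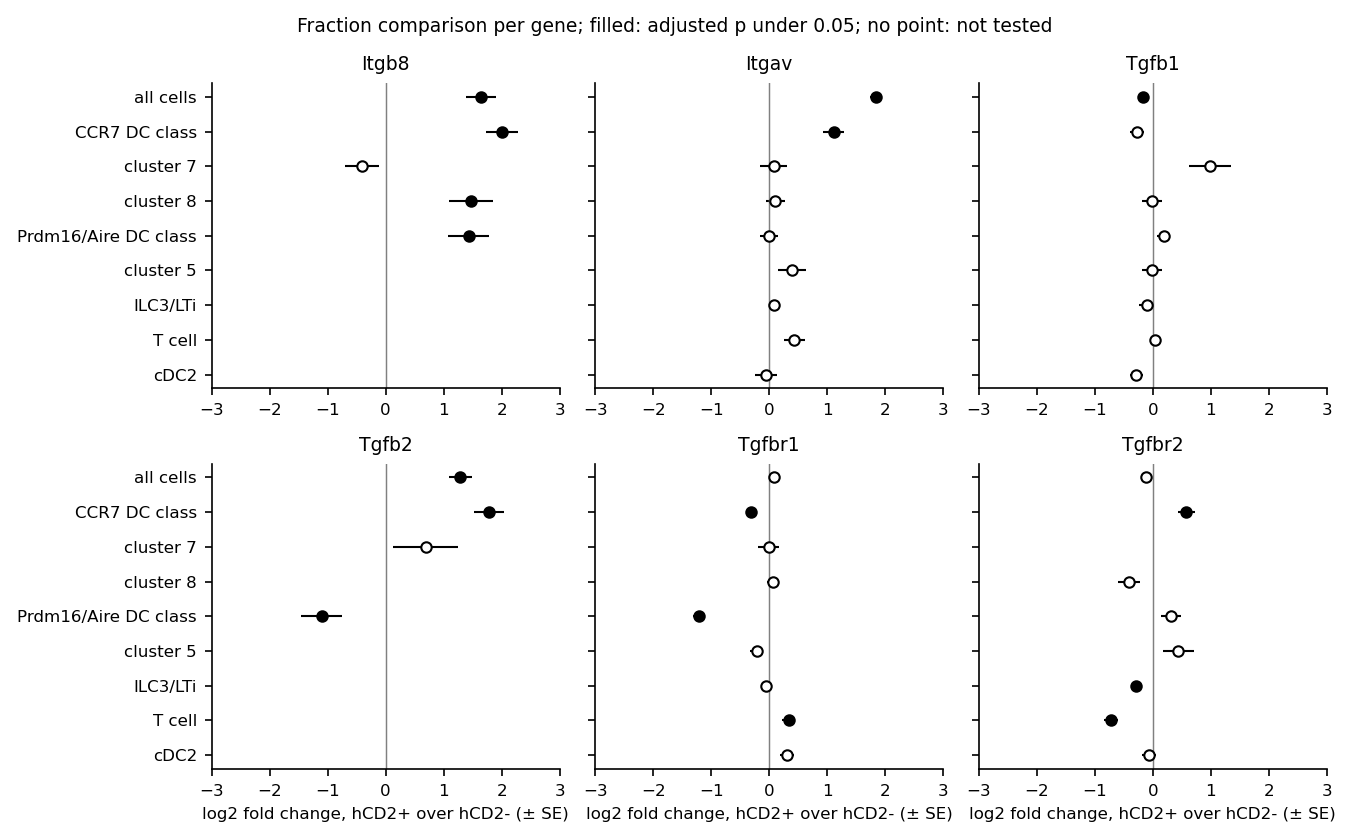
Log2 fold change of hCD2+ over hCD2- with its SE for 6 members, over all cells, in 5 classes and in clusters 5, 7 and 8; filled points passed an adjusted p of 0.05 (edgeR), and a missing point was not tested. Itgb8 is 2.01 in CCR7 DC-like cells, -0.41 in cluster 7 and 1.47 in cluster 8, and Tgfbr1 is -1.21 in Prdm16 or Aire DC-like cells and -0.21 in cluster 5.

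The genes whose level most resembled that of Itgb8 over 12 points (class by fraction, at least 6 mice each) were Adcy6 (Pearson r 0.955), Prr14 (0.942), Arc (0.933), Socs2 (0.929) and Ccr7 (0.929), out of 10258 genes ranked on log2(CPM + 1). The points share libraries and mice, and Socs2 and Ccr7 were among the clustering genes and the CCR7 DC markers. With a pseudocount of 5, 2 of these 5 stayed among the top 5, and by Spearman's rho 0 did. Among the members, r with Itgb8 was 0.87 for Tgfb2, 0.08 for Itgav, -0.29 for Tgfbr1, -0.54 for Tgfbr2 and -0.91 for Tgfb1.

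Of 48 other genes of the pathway, 25 were tested between the fractions of CCR7 DC-like cells, where 2 were higher and 7 lower in hCD2+ cells (median log2 -0.12; 16.9% of all genes higher and 15.9% lower). Nrros, which tethers latent TGF-beta to myeloid cells, had 78.2 ± 15.6 CPM in hCD2+ and 147 ± 28.4 CPM in hCD2- cells (log2 -0.94 ± 0.11, adjusted p = 1.68e-07). Smad7, an inhibitor that TGF-beta induces, had 49.0 ± 9.79 and 80.9 ± 13.9 CPM (log2 -0.75 ± 0.11, adjusted p = 3.48e-06), and Runx3, a transcription factor of the pathway, was lower in 11 of 12 mice (-0.67 ± 0.10, adjusted p = 4.57e-06). Itgb1, another partner of alpha-v, was higher, at 653 ± 75.8 and 462 ± 24.0 CPM (0.47 ± 0.06, adjusted p = 3.88e-07). These class values hold the unequal clusters given above, whose part was not tested. Within cluster 7, of 18 pathway genes tested, 0 were higher and 0 lower (5.71% of all genes called). Within cluster 8, of 21 tested, 1 was higher and 2 lower (5.31% and 3.77% of all genes), with Nrros (-0.47 ± 0.13, adjusted p = 0.0202) and Runx3 (-0.49 ± 0.11, adjusted p = 0.00676) lower and Pmepa1, an inhibitor that TGF-beta induces, higher (0.51 ± 0.16, adjusted p = 0.0431).

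In Prdm16 or Aire DC-like cells 28 were tested, of which 5 were higher and 11 lower in hCD2+ cells (median log2 -0.27; 24.6% of all genes higher and 24.3% lower), with the unequal clusters given above. Furin, a protease that cuts the TGF-beta precursor, had 30.6 ± 3.30 CPM in hCD2+ and 16.2 ± 6.39 CPM in hCD2- cells (log2 0.96 ± 0.16, adjusted p = 1.34e-05). Itgb3, a further partner of alpha-v, had 11.8 ± 4.93 and 41.8 ± 29.7 CPM (-1.72 ± 0.31, adjusted p = 4.12e-05). Smad2 (-0.43 ± 0.09, adjusted p = 3.16e-04) and Smad4 (-0.41 ± 0.10, adjusted p = 9.61e-04), which carry the signal, were lower. Genes known to respond to TGF-beta went the other way, with 3 of 3 tested higher (median log2 1.25). Among inhibitors of Smad signalling, 0 of 8 tested were higher and 3 lower (median log2 -0.27). Within cluster 5, of 24 tested, 1 was higher and 0 lower (1.61% and 1.21% of all genes).

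Set against ILC3 or LTi-like cells of the hCD2+ fraction, Prdm16 or Aire DC-like cells had 10 of 27 tested pathway genes higher and 16 lower (median log2 -0.21; 40.7% of all genes higher and 40.4% lower). The partners of alpha-v parted: Itgb1 had 392 ± 27.2 CPM in Prdm16 or Aire DC-like and 88.5 ± 9.48 CPM in ILC3 or LTi-like cells (log2 2.29 ± 0.05, adjusted p = 1.12e-25), while Itgb3 had 11.8 ± 4.93 and 146 ± 15.3 CPM (-3.46 ± 0.13, adjusted p = 5.17e-20). Furin was lower, at 30.6 ± 3.30 and 265 ± 20.2 CPM (-2.98 ± 0.06, adjusted p = 2.26e-27), as was the coreceptor Eng (-4.36 ± 0.12, adjusted p = 5.28e-23).

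Between cluster 2 and cluster 3, 9 of 22 tested were higher in cluster 2 and 6 lower (median log2 0.03; 32.5% of all genes higher and 34.2% lower). The inhibitors Smurf1, at 281 ± 56.5 CPM in cluster 2 and 58.8 ± 10.8 CPM in cluster 3 (log2 2.47 ± 0.11, adjusted p = 1.03e-18), and Pmepa1, at 50.1 ± 13.5 and 5.61 ± 2.67 CPM (3.35 ± 0.18, adjusted p = 3.38e-16), were higher. The inhibitors as a list were split, with 3 of 8 tested higher and 3 lower (median log2 -0.08). Runx3, at 193 ± 30.6 and 733 ± 59.1 CPM (-1.69 ± 0.07, adjusted p = 6.28e-19), and Nrros, lower in 12 of 12 mice (-1.25 ± 0.10, adjusted p = 5.02e-12), were lower. Between cluster 10 and cluster 8, 2 of 20 tested were higher in cluster 10 and 7 lower (23.8% of all genes higher and 24.1% lower). Itgb1 was the first of those higher (0.91 ± 0.07, adjusted p = 9.14e-11). Cdkn2b, a cell cycle inhibitor, was the first of those lower, at 4.57 ± 6.02 CPM in cluster 10 and 62.0 ± 19.7 CPM in cluster 8 (-3.81 ± 0.36, adjusted p = 2.23e-09).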

How the data were processed

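The deposited values were raw UMI counts of each barcode for genes and hashtags, which the authors made with Cell Ranger 8.0.1 on mm10, per the submitters' processing notes, with no cell filter. A deposited table gives each called cell's hashtag and, as a fraction of 1, how probable it is. Called cells numbered 8801 (hCD2+, 178129025 UMIs) and 5603 (hCD2-, 150904166 UMIs). A single hashtag marked 7415 and 4907 of them, and those that passed a minimum of 500 genes and a ceiling of 10% mitochondrial UMIs were used. Hashtag multiplets (806 and 465) were left out, and no further doublet caller was run, so that doublets of cells with the same hashtag remain.

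The 2 libraries went into one clustering in scanpy 1.11.5 (Leiden at a resolution of 1.0, on 30 components of 2000 variable genes, with 15 neighbours), without the 9 genes or the pathway genes, and a cluster was named from at least 3 elevated markers. Clusters with few UMIs or with T cell markers beside those of another class got no name. The naming rule was set after clustering. CPM were computed here from counts summed per mouse, fraction and class, with means over mice of at least 10 cells; pooled values sum all cells of a class. Tests used edgeR 4.0.16 (quasi-likelihood, TMM, filterByExpr, Benjamini-Hochberg over all genes tested) on R 4.3.3, with at least 6 mice a group, and 100000 permutations of mice for shares of cells (exact with fewer than 10 mice). Of the 9 genes, Tgfb3 and Thbs1 passed the filter in no comparison. DESeq2 1.42.0 was an alternative. The main fits and the permutations did not pair the fractions by mouse, and an alternative fit took the mouse as a block. Counting ratios have exact 95% intervals and, like limits for a count of 0 (3 counts), cover counting error only. Calculations also used Python 3.11.15, numpy 2.4.6, scipy 1.17.1 and pandas 2.3.3. The fits were tested on simulated counts.

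The same hashtag was taken to mark the same animal in both fractions. Over 8192 genes, deviations of same-numbered samples correlated at 0.250 to 0.648, above 0.1 in 12 of 12 mice, against a mean of -0.0388 for other pairs. For 10 of 12 hCD2+ samples the best-correlated hCD2- sample had the same number, and for the rest it had another. The numbers were used to pair the samples. All 9 genes were named; of the other pathway genes, those called with the smallest adjusted p per list were eligible (up to 3 in the direction with more calls and 1 in the other). Members and lists were chosen with earlier results of these data known.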

Additional observations from a re-analysis of the deposited data

Results flagged for a closer look

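Of 60 sets of values looked at, each of 1 gene in 1 class or cluster of 1 fraction over 4 to 10 mice with a highest value of at least 10 CPM, 15 held a mouse far from the others. The cutoff marks about 1 in 20 sets of normally distributed values. Its rate for sparse CPM, many of them 0, is not known, so the number marked is no measure of excess. Sets of the same class or cluster share their mice. In NK or ILC1-like hCD2+ cells (4 mice) these were mouse 5 for Itgav (483 CPM), mouse 4 for Itgb8 (10.5 CPM) and mouse 11 for Tgfb2 (11.2 CPM). For Itgb8 and Tgfb2 the other mice had 0 CPM there, so any single mouse past 10 CPM would be marked. In the Prdm16 or Aire class of the hCD2- fraction, mouse 4 was low for Itgav (32.5 CPM) and high for Tgfbr1 (263 CPM), and the same mouse was low for Itgav in cluster 5 (35.5 CPM). In hCD2+ cDC2-like cells, mouse 10 was high for Itgb8 (64.8 CPM) and Tgfb2 (25.9 CPM). Mouse 10 was low for Tgfb1 in hCD2+ cluster 10 (9.09 CPM), and mouse 3 high for Itgav in hCD2+ cluster 21 (116 CPM). In hCD2- cluster 5, mouse 2 was high for Itgb8 (23.3 CPM). In cluster 7 the high ones were, in hCD2+ cells, mouse 8 for Ltbp3 (12.2 CPM) and mouse 1 for Tgfbr1 (149 CPM), and in hCD2- cells mouse 1 for Itgb8 (969 CPM) and mouse 7 for Thbs1 (13.6 CPM).

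The difference between hCD2+ and hCD2- cells itself differed between classes by an interaction term of the edgeR fit. Prdm16 or Aire DC-like minus CCR7 DC-like cells gave log2 -2.86 for Tgfb2, -1.09 for Itgav, -0.88 for Tgfbr1 and 0.48 for Tgfb1. Prdm16 or Aire DC-like minus ILC3 or LTi-like cells gave -1.19 for Tgfbr1 and 0.58 for Tgfbr2 (adjusted p = 0.0107; 0.263 with cells sampled to 5000 UMIs). The classes hold different clusters in the 2 fractions, whose part in these differences was not tested.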

How the results depend on the processing

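Of the member tests under all alternatives, 1036 stayed on the same side of the threshold (with some changes of sign among values that were never called), 30 lost and 8 gained the call, and 3 that were called with or without the alternative turned round: Tgfbr1 (0.057) and Tgfbr2 (-0.37) between fractions of CCR7 DC-like cells without cluster 10, and Tgfbr1 (0.094) between Prdm16 or Aire DC-like and CCR7 DC-like hCD2+ cells at 5000 UMIs. The cause was not tested where none is given. Counts of genes called moved by over 1.5 times as follows. CCR7 DC-like without cluster 10 gave 1528 (2857 before). With equal cluster mix, all cells gave 1193 (726 higher, 467 lower; 8968 before). DESeq2 gave 668 in ILC3 or LTi-like cells (399 with edgeR) and 456 in cluster 7 (301). Mice of at least 20 cells gave 33 in cluster 7 and 38 in cluster 5 (189 before). The replicate block gave 618 in cDC2-like cells (1115 before) and 198 in cluster 7, and the stricter cell filter 189 in cluster 7. Leaving out mouse 1 of cluster 7 gave 113 (hCD2-) to 341 (hCD2+) there. With no filter, which tests more genes, Prdm16 or Aire DC-like hCD2- cells gave 5904 against ILC3 or LTi-like, 7744 against cDC2-like, 7941 against NK or ILC1-like, 8194 against CCR7 DC-like, 8346 against cDC1-like and 9237 against T cell-like cells, and cluster 2 against cluster 5 gave 7766. At 5000 UMIs a cell, which removes counts, calls between fractions fell to 47 in cluster 7, 61 in cluster 5, 121 in ILC3 or LTi-like, 271 in T cell-like (185 higher, 86 lower), 276 in cluster 8, 302 in cDC2-like, 999 in CCR7 DC-like and 1922 in Prdm16 or Aire DC-like cells. Interactions fell to 1020 (ILC3 or LTi-like) and 1170 (CCR7 DC-like). Cluster pairs fell to 792 (8 and 7, hCD2+), 1224 (8 and 7, hCD2-), 903 (10 and 7), 1062 (10 and 8), 1130 (10 and 2), 1503 (2 and 5), 2211 (2 and 3) and 2219 (3 and 5). Prdm16 or Aire DC-like hCD2+ cells gave 5580 against ILC3 or LTi-like, 3417 against CCR7 DC-like and 2501 against cDC2-like cells, and hCD2- cells 1003 against ILC3 or LTi-like, 1315 against cDC1-like, 1700 against NK or ILC1-like, 2044 against CCR7 DC-like, 2044 against cDC2-like and 2372 against T cell-like cells. Splits moved by over 10 points without the filter in ILC3 or LTi-like cells (244 higher, 149 lower), cluster 5 (131 and 55) and cluster 8 (239 and 290), and at 20 cells in cluster 5 (16 and 22). Of the genes most like Itgb8, 2 of 5 were shared with a pseudocount of 5 and 0 by Spearman. Both comparisons with cDC2-like hCD2+ cells could not be fitted at 20 cells. Alternatives without cluster 10 or single mice, and comparisons within clusters 5, 7 and 8, were chosen after seeing the data. Beside the calls named above, the replicate block changed Tgfb2 between Prdm16 or Aire DC-like and cDC2-like hCD2+ cells (1.72, adjusted p = 0.0280) and Tgfbr1 between Prdm16 or Aire DC-like and CCR7 DC-like hCD2+ cells (adjusted p = 0.0576), and no other member's call. Free RNA made up at most 1.91% of the UMIs of a class, by its largest share, in Prdm16 or Aire DC-like hCD2+ cells.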

Other observations

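Among T cell-like cells, Itgb8 in cluster 20 had 39.3 ± 30.6 CPM in hCD2+ (n = 4) and 32.4 ± 30.1 CPM in hCD2- mice (n = 12). Cluster 21 had 0.463 CPM in hCD2+ (n = 8) and 0.362 CPM in hCD2- cells (n = 12). Cluster 22 had Foxp3 and Ctla4 among its 10 genes of largest fold. Without sampling down, 2 of its 38 hCD2+ and 1 of its 8 hCD2- cells held an Itgb8 UMI, at a median of 63923.5 UMIs a cell. In cluster 20 these were 12.6% of 87 hCD2+ and 8.66% of 381 hCD2- cells, at a median of 14710 UMIs. In hCD2- cells of cluster 20 sampled to 5000 UMIs, Foxp3, the transcription factor of regulatory T cells, was seen in 66.7% of 21 cells with an Itgb8 UMI and in 7.14% of 336 cells without. Ctla4 was seen in 76.2% and 23.5% of the same cells. Of DC genes, Fscn1 was seen in 9.52% of cells with and 9.82% of cells without an Itgb8 UMI, H2-Ab1 in 9.52% and 17.3%, and Ccl22 in 4.76% (1 cell) and 2.08%. The T cell gene Cd3e was seen in 76.2% and 86.9%. These are counts of cells, not replicates, and the genes were chosen after their values were seen.

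Some clusters got no class. Cluster 17, with few UMIs a cell and 9 of 10 CCR7 DC markers, had Itgb8 at 257 CPM pooled over 67 hCD2+ cells and 98.1 ± 87.8 CPM in 7 hCD2- mice. Its Tgfb2 stood at 6.86 CPM pooled over hCD2+ cells (2 UMIs) and 17.7 ± 31.7 CPM in hCD2- mice. Cluster 24, with markers of T cells and CCR7 DCs, pooled to 97.9 CPM in hCD2+ and 16.0 CPM in hCD2- cells.

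In the pDC-like class, all 14 Itgb8 UMIs of hCD2+ cells lay in 1 cell, which also held 76 Ccr7 and 132 Fscn1 UMIs.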
